A study of Homo sapiens with 12 samples.

Results

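The 200 antisense RNA genes with the highest mean FPKM were described in the human glioblastoma line U87, which is long established, across 2 versions of the line and 3 treatments. Their symbols, identifiers and the class antisense came from the deposited gene table, which held 57773 genes, 5273 of them classed as antisense. The 200 were chosen by their rank in mean FPKM over all 12 libraries, so their level is how they were chosen and is given as a description only. The samples were a derivative of U87 with acquired resistance to JQ1 and its parental culture, each kept for 24 h in 1000 nM dBET6, 1000 nM JQ1 or DMSO, the solvent control. PolyA RNA was sequenced from 2 libraries for each of the 6 groups. JQ1 blocks the pockets with which BET proteins read acetylated lysine, and dBET6 couples a ligand of the same kind to a ligand of cereblon so that BET proteins are degraded. How the resistant line was derived, and whether it was a clone, is not given in the labels, nor is it said that the 2 libraries of a group came from separate cultures, so a p-value here covers the spread between such libraries, which may be technical.

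Antisense RNAs are transcribed from the strand opposite to a neighbouring or overlapping gene. Many start at the same promoter as a protein-coding gene and run away from it, because most promoters that are rich in CpG dinucleotides fire in both directions, while others start inside a gene or beyond its end and cross its exons. Some are processed for small RNAs carried in their introns, and some act on the gene they cross. BET proteins, the targets of both compounds, bind acetylated histones at promoters and enhancers and help RNA polymerase II to leave its pause site and elongate.

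The promoters of 3 of these genes and of 1 sense partner show the arrangements that recur below. ADAMTSL4-AS2 (RP11-54A4.2 in the deposited table) had one of the largest responses to dBET6, WNT5A-AS1 and WNT5A start head to head and fell together, and HNRNPD-DT (RP11-127B20.3) moved against its neighbour HNRNPD. The windows run from 250 bases before to 50 bases after the start in RefSeq on GRCh38.p14, written 5′ to 3′ on the gene's own strand, with CpG dinucleotides in capitals. They lie at chr1:150557675-150557974 (minus strand), chr3:55487368-55487667 (plus), chr3:55487257-55487556 (minus) and chr4:82374318-82374617 (plus), in the order printed.
ADAMTSL4-AS2: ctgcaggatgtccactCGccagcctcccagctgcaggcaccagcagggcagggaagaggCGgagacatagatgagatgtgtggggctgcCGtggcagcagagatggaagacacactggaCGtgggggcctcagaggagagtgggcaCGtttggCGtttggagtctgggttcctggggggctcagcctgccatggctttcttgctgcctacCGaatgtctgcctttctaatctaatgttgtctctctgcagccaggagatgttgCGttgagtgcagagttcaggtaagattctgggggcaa
WNT5A-AS1: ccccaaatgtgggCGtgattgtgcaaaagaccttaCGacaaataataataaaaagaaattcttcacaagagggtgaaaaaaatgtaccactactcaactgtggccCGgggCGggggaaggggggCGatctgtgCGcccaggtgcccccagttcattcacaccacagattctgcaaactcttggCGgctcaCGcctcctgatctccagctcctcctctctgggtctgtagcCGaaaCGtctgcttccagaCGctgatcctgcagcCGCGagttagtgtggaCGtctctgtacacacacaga
WNT5A: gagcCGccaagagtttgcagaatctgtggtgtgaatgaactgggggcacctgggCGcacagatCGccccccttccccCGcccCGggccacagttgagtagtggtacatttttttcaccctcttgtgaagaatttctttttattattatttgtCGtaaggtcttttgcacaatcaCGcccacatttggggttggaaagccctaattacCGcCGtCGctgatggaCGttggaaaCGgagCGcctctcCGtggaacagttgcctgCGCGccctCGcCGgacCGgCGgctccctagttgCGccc
HNRNPD-DT: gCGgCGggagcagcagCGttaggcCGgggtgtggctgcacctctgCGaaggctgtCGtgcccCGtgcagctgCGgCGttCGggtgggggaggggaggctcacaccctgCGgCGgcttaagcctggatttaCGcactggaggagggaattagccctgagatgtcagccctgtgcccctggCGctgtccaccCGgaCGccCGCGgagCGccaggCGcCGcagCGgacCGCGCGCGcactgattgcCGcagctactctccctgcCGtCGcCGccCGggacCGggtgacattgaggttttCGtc
The windows held 8, 14, 21 and 33 CpG dinucleotides. Those of WNT5A-AS1 and WNT5A shared 189 bases of the same genomic interval, read from opposite strands, with RefSeq starts 312 bases apart. None of the 4 held TATAAA or CCAAT on either strand.

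Of the 200 genes, 97 had a promoter in the RefSeq table, which held 1 window for each of 27305 gene symbols. Their windows held a median of 27 CpG dinucleotides, against 14 over all windows of the table. TATAAA occurred on either strand in 4.12% of them, against 12% of all windows, and CCAAT in 37.1%, against 35.7%. The table was not limited to genes expressed in U87, and the part of expression in these contrasts was not tested. The 45 with a window that rose with dBET6 in both lines held a median of 28 CpG dinucleotides (quartiles 21 and 35). The 20 that fell in both held 20 (quartiles 15.5 and 31.25), so the 2 ranges overlapped. These are descriptions of the letters in the windows, and a matched word is not shown to be a bound site.

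The libraries held 24732177 to 40388589 kallisto estimated counts each. VIM, an intermediate filament of mesenchymal and glioma cells, had 2908 to 11067 FPKM, CD44 242 to 628 and FN1 149 to 539, while the glial marker GFAP had 1.58 to 6.39. The blood marker PTPRC, the epithelial markers EPCAM and KRT18 and the endothelial marker CDH5 stayed below 1 FPKM in every library. The epithelial marker CDH1 was higher in the dBET6 libraries, at 2.06 to 2.96 FPKM in resistant and 1.47 to 1.52 in parental cells, against 0.0176 to 0.255 with JQ1 or DMSO, and its part in the results was not tested. The dBET6 libraries differed in composition from the rest: the 13 mitochondrially encoded mRNAs took 3.19% to 3.94% of their counts, against 1.46% to 2.70% with JQ1 or DMSO, and the 50 genes with most counts took 25.8% to 31.0%, against 12.4% to 18.5%. The part of this difference in the results below was not tested beyond the other scalings given beside them. Whether the libraries kept strand is not stated, so reads of an antisense gene and of the gene it overlaps cannot be told apart.

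Of the 200, 187 had their identifier in GENCODE release 29 (GRCh38), which still classed 168 as antisense and 5 as protein-coding. A protein-coding gene lay over the body of 155 on the other strand, and 127 started within 1000 bases of a protein-coding start on that strand. Exons overlapped exons of the other strand in 127, by more than 50% of the exonic bases in 27, while 60 had no such overlap. Distances between starts and exon overlaps given here are those of GENCODE 29, and RefSeq can place a start elsewhere. The mean over the 12 libraries ran down to 6.46 FPKM for the gene at rank 200, MIR3615 (its identifier is now SLC9A3R1-AS1), with a median of 11.6 FPKM. The next genes inside the limit were AC139887.4 at 6.54 and CTD-2269F5.1 at 6.62 FPKM, and those just outside were CTB-31O20.6 at 6.37, ENSG00000271895 at 6.36 and RGMB-AS1 at 6.29 FPKM. Since the mean included the dBET6 libraries, a gene high only there could enter. Between 145 and 159 of the 200 were also among the 200 highest of any single group, 155 among the 200 highest of the 4 DMSO libraries, and 79 among the 200 highest of all 6 groups.

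The median FPKM of the 200 was 16.3 and 16.7 in the resistant dBET6 libraries, 9.32 and 9.64 with JQ1, and 8.75 and 9.37 in DMSO. In parental cells it was 14.4 and 14.8 with dBET6, 9.28 and 9.47 with JQ1, and 8.53 and 9.04 in DMSO. The dBET6 libraries stood above all others in both lines, and the JQ1 and DMSO libraries were close together. The group with the highest mean was dBET6 for 119 genes (69 in resistant and 50 in parental cells), JQ1 for 41 and DMSO for 40. The genes were chosen on these same values, over a mean that includes the dBET6 libraries, so nothing is read from this order.

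The 12 genes of highest mean were led by RN7SL1, the symbol of the RNA of the signal recognition particle, which targets secreted proteins to the membrane. The deposited table gave it 2438 and 2127 FPKM in resistant dBET6 libraries, 465 and 570 with JQ1, and 405 and 1090 in DMSO. Parental cells gave it 2127 and 7886 FPKM with dBET6, 745 and 1104 with JQ1, and 840 and 991 in DMSO. All 4 dBET6 libraries exceeded all others, but the parental pair differed more than 3-fold, and no counts were paired with this identifier. RPPH1, the symbol of the RNA of ribonuclease P, showed a similar order, with 304 and 289 FPKM in resistant dBET6 libraries, 47.5 and 44.1 with JQ1 and 35.8 and 54.4 in DMSO. The counts paired with its identifier did not account for that FPKM (0.006 of it), so only the FPKM is given for RPPH1. The libraries were of polyA RNA, and whether these FPKM follow the cellular levels of RN7SL1 and RPPH1 was not tested. No change in level is read from them.

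**Figure D1:**
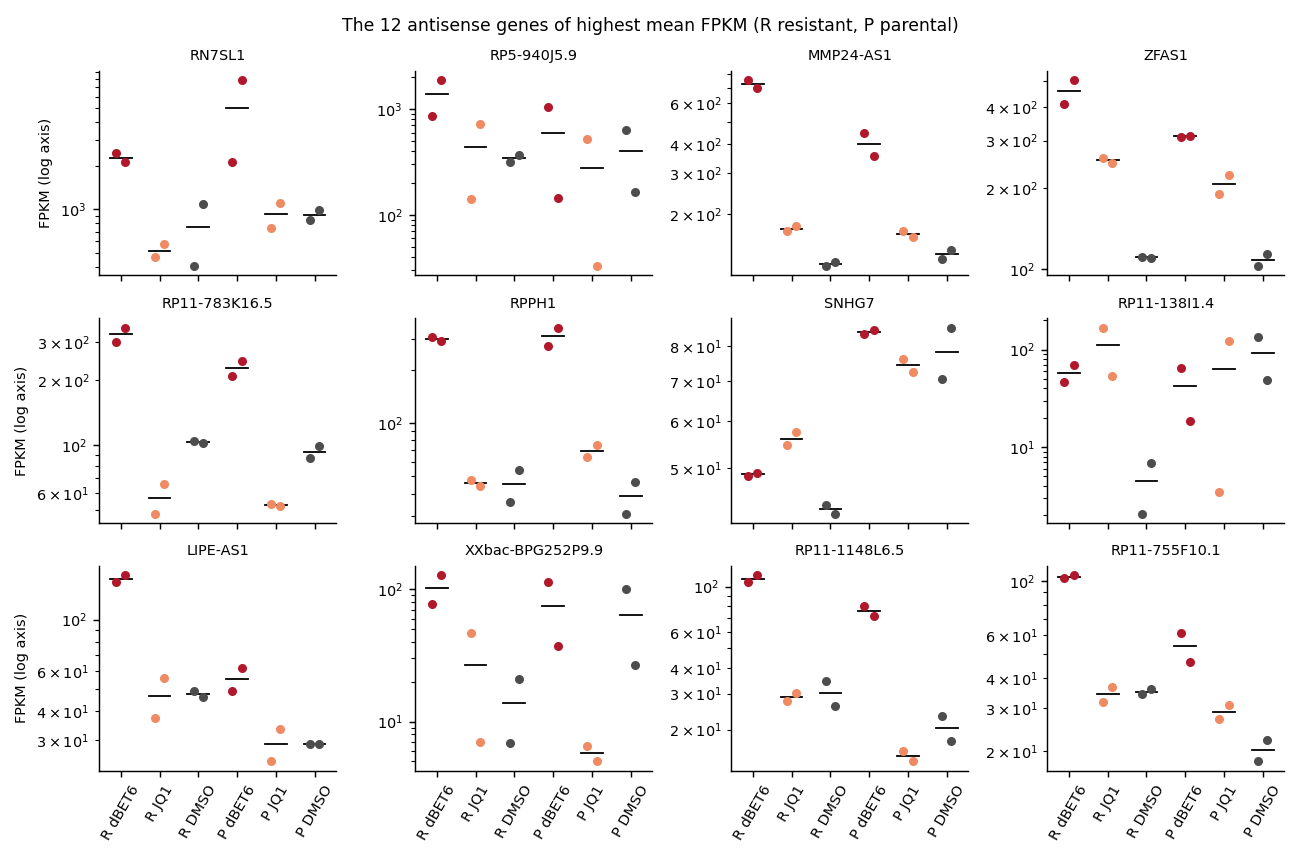
FPKM (log axis) of the 12 antisense genes with the highest mean in each library, with the resistant groups left of the parental ones. Points are libraries (dark red dBET6, light orange JQ1, dark grey DMSO) and lines the mean of 2. RP5-940J5.9, RP11-138I1.4 and XXbac-BPG252P9.9 scatter between libraries of a group, while ZFAS1 runs from 103 to 504 FPKM with pairs close together.

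ZFAS1 hosts small nucleolar RNAs in its introns and starts 41 bases from the start of ZNFX1 on the other strand. It had 409 and 504 FPKM in resistant dBET6 libraries, 259 and 247 with JQ1, and 111 and 110 in DMSO. In parental libraries it had 310 and 313 FPKM with dBET6, 190 and 223 with JQ1, and 103 and 114 in DMSO. The 3 treatments did not overlap in either line. On counts ZFAS1 rose with JQ1 by 1.17 ± 0.10 (log2, SE) in resistant and 0.89 ± 0.10 in parental cells, at adjusted p of 1.1e-10 and 1.3e-08 in edgeR's quasi-likelihood test. With dBET6 the log2 fold changes were 2.07 ± 0.10 and 1.63 ± 0.10 at the main scaling, but 0.01 and −0.13 when libraries were scaled to the mitochondrial mRNAs.

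MMP24-AS1, now MMP24OS and annotated as protein-coding, crosses MMP24, a membrane-bound metalloproteinase gene. It had 757 and 700 FPKM in resistant dBET6 libraries, 168 and 177 with JQ1, and 119 and 123 in DMSO. Parental libraries held 446 and 356 FPKM with dBET6, 169 and 159 with JQ1, and 127 and 140 in DMSO. Its log2 fold change with dBET6 was 2.60 ± 0.10 in resistant cells (0.54 with mitochondrial scaling) and 1.56 ± 0.10 in parental cells (−0.22 with that scaling). RP11-783K16.5 (PPP1R14B-AS1) lies against PPP1R14B, which encodes an inhibitor of protein phosphatase PP1, and 61.1% of its exonic bases overlap exons of the other strand. It had 302 and 351 FPKM in resistant dBET6 libraries, 48.1 and 65.9 with JQ1, and 105 and 102 in DMSO, so the JQ1 libraries lay below DMSO and the dBET6 libraries above it. Its log2 fold change was −0.74 ± 0.13 with JQ1 and 1.87 ± 0.12 with dBET6 in resistant cells, and −0.69 ± 0.13 and 1.46 ± 0.13 in parental cells, the dBET6 values turning to −0.20 and −0.30 with mitochondrial scaling.

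LIPE-AS1, which starts head to head with the hormone-sensitive lipase gene LIPE, had 146 and 156 FPKM in resistant dBET6 libraries, 37.5 and 55.8 with JQ1 and 48.8 and 46.1 in DMSO. Its summed counts rose with dBET6 in both lines, by 1.76 ± 0.18 in resistant and 0.85 ± 0.20 in parental cells (log2; −0.30 and −0.90 with mitochondrial scaling). For JQ1 the counts and the FPKM went opposite ways: counts gave 0.84 ± 0.17 in resistant cells at adjusted p = 0.00019, whereas log2 FPKM gave −0.05. RP11-1148L6.5, whose start lies 5258 bases from that of RBM3, the gene of a cold-inducible RNA-binding protein, had 105 and 113 FPKM in resistant dBET6 libraries, 27.5 and 30.3 with JQ1 and 34.6 and 26.0 in DMSO. RP11-755F10.1 had 103 and 106 FPKM in resistant dBET6 libraries, 31.9 and 36.8 with JQ1 and 34.3 and 36.0 in DMSO. Their log2 fold changes with dBET6 in that line were 2.01 ± 0.15 and 1.79 ± 0.16, and −0.07 and −0.28 with mitochondrial scaling.

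Of the 12 highest, 3 lie on exons of abundant genes and differed widely between the 2 libraries of a group. RP5-940J5.9 lies wholly on exons of GAPDH, a glycolytic enzyme, on the other strand, and had 860 and 1885 FPKM in resistant dBET6 libraries, 142 and 728 with JQ1, and 315 and 371 in DMSO. Parental libraries gave 1054 and 143 FPKM with dBET6, 517 and 32.9 with JQ1, and 633 and 165 in DMSO. GAPDH itself had 12253 and 12521 FPKM in resistant dBET6 libraries, 4455 and 4637 with JQ1 and 2557 and 2614 in DMSO, with close pairs. RP11-138I1.4 lies wholly on exons of UBB, a ubiquitin gene, and ran from 2.08 to 168 FPKM over the 12 libraries, while UBB ran from 390 to 1407. XXbac-BPG252P9.9 has 69.6% of its exonic bases on TUBB, a tubulin gene, and ran from 5.00 to 128 FPKM. RP11-783K16.5 also has most of its exonic bases on exons of the other strand, and its libraries were close, with a mean absolute log2 ratio of 0.19 within groups. None of these 3 passed adjusted p under 0.05 in a comparison with DMSO. Over all 187 genes the median absolute log2 ratio of the 2 libraries of a group was 0.401 for the 27 with more than 50% exon overlap, 0.240 for the 100 with less and 0.276 for the 60 with none. A group with more than a 2-fold ratio occurred in 12 of the 27, 13 of the 100 and 12 of the 60. Whether reads of the sense gene set these values was not tested.

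**Figure D2:**
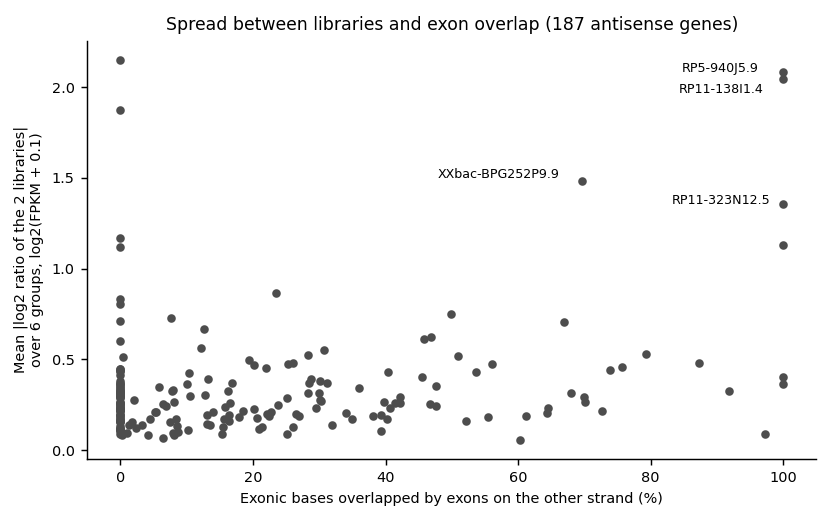
Mean absolute log2 ratio of the 2 libraries of a group (vertical, on log2(FPKM + 0.1)) against the percent of exonic bases overlapped by exons of the other strand, for 187 antisense genes (points). RP5-940J5.9 and RP11-138I1.4, at 100% overlap, reach 2.08 and 2.05, above all others but RP11-386I14.4 at 2.15, which has no overlap and is named because its value was seen.

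All 187 genes with an identifier in GENCODE 29 passed the filter on low counts and were tested with all 19093 genes kept. A call is an adjusted p under 0.05. With dBET6 in resistant cells 104 of the 187 (55.6%) were higher than in DMSO, where 35.7% of all genes tested were, and 43 (23.0%) were lower, where 39.5% were. In parental cells 103 (55.1%) were higher with dBET6 and 44 (23.5%) lower, where 37.0% and 39.3% of all genes were. The median log2 fold change of the 187 was 0.88 in resistant and 0.77 in parental cells, against −0.06 and −0.01 over all genes.

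With JQ1 in resistant cells 66 (35.3%) were higher and 29 (15.5%) lower, where 20.8% and 23.1% of all genes were. In parental cells 71 (38%) were higher with JQ1 and 37 (19.8%) lower, where 22.8% and 26.1% of all genes were. The median log2 fold changes of the 187 were 0.28 and 0.37, against 0.01 over all genes in each line. With dBET6 against JQ1, 98 (52.4%) were higher and 45 (24.1%) lower in resistant cells, where 35.4% and 38.8% of all genes were. In parental cells 84 (44.9%) were higher and 48 (25.7%) lower with dBET6 than with JQ1, where 36.2% and 38.4% of all genes were.

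These shares depend on how the genes were ranked. When the 200 were instead taken by their mean over the 4 DMSO libraries, 36.9% were higher and 35.3% lower with dBET6 in resistant cells, and 35.8% and 39.0% in parental cells. With JQ1 those shares were 21.9% and 25.1% in resistant cells and 24.6% and 30.5% in parental cells. All 8 lie near the shares of all genes, so nothing is read from the excess of higher calls among the 187.

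They also depend on the scaling. The share of called genes among the 187 that were higher with dBET6 was 70.7% in resistant and 70.1% in parental cells. It was 45.6% and 53.6% with total counts, and 20.7% and 23.0% with scaling to the mitochondrial mRNAs. For JQ1 the shares were 69.5% and 65.7%, then 52.9% and 58.7% with total counts, and 22.8% and 47.7% with mitochondrial scaling. For dBET6 against JQ1 they were 68.5% and 63.6%, then 45.2% and 45.5%, and 26.8% and 24.5%. The median of all genes moved as well: with total counts to −1.14 and −0.65 for dBET6 and −0.17 and −0.10 for JQ1 (resistant and parental, log2), and with mitochondrial scaling to −2.12, −1.78, −0.56 and −0.28 in the same order. Directions below are relative to the main scaling, and a gene whose direction turned is named with its value.

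**Figure D3:**
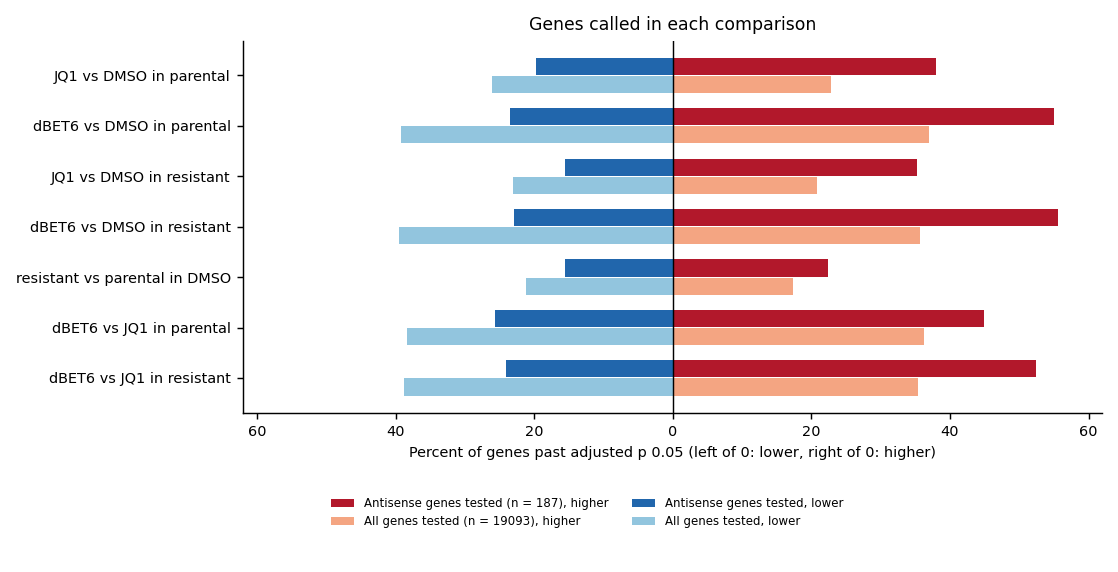
Percent of genes past adjusted p 0.05 that were higher (right of 0) or lower (left of 0) in each comparison, for the 187 antisense genes tested (dark bars) and for all 19093 genes tested (light bars). With dBET6 against DMSO 55.6% and 55.1% of the antisense genes were higher, against 35.7% and 37.0% of all genes.

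The 2 lines have separate DMSO libraries, so their calls can be set side by side. With JQ1 55 genes were higher in both lines (of 66 in resistant and 71 in parental cells) and 22 were lower in both (of 29 and 37), and no gene was called in opposite directions. Over all genes tested 2898 were higher in both lines (of 3978 in resistant and 4362 in parental cells), 3483 were lower in both (of 4413 and 4979) and 98 were called in opposite directions. With dBET6 92 were higher in both (of 104 and 103), 32 were lower in both (of 43 and 44), and 3 were called in opposite directions. These were HOTAIRM1, RP11-349A22.5 (PSMA3-AS1) and AC108142.1 (TENM3-AS1), of which RP11-349A22.5 is named because its values were seen. Their log2 changes with dBET6 were 0.48, −0.48 and 0.31 in resistant cells and −0.49, 0.32 and −0.50 in parental cells. With total counts all 6 values were negative, from −1.56 to −0.31. Over all genes tested 5768 were higher in both lines with dBET6 (of 6813 and 7066), 6560 were lower in both (of 7542 and 7507) and 285 (1.49%) were called in opposite directions, against 1.60% of the 187.

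Several genes were well above the median of the list with dBET6 and near 0 in DMSO. The list was ranked on a mean that includes the dBET6 libraries, so genes high only there could enter it. Nothing is read from the presence of such genes. ADAMTSL4-AS2 (RP11-54A4.2), whose promoter is printed above, crosses 189 exonic bases of ADAMTSL4, the gene of a secreted protein of the extracellular matrix. It had 125 and 111 FPKM in resistant dBET6 libraries, 1.05 and 0.703 with JQ1, and 0.493 and 0.589 in DMSO. In parental cells it had 74.2 and 72.4 FPKM with dBET6, 0.440 and 0.127 with JQ1, and 0.105 and 0.108 in DMSO. The dBET6 libraries were far above the rest, and its counts rose by 7.78 ± 0.20 in resistant and 9.36 ± 0.25 in parental cells (log2). In DMSO it had 11 and 11 counts in resistant and 2 and 2 in parental libraries, so the sizes of these rises rest on few reads. ADAMTSL4 rose with it, to 165 and 138 FPKM with dBET6 against 1.43 and 1.59 in DMSO in resistant cells, a log2 change of 6.58 ± 0.13.

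RP11-779O18.1 had 74.3 and 80.0 FPKM in resistant dBET6 libraries, 0 and 0.132 with JQ1, and 0.206 and 0 in DMSO. Its summed counts in resistant cells were 509 with dBET6 and 2 in DMSO, 763 times as many at the main scaling (counting interval 210 to 6321) and 362 times with total counts (99.7 to 2998). RP11-689B22.2 lies over SELPLG, the gene of a selectin ligand, on the other strand and had 155 counts over the resistant dBET6 libraries and 0 over DMSO, at least 73.5-fold with total counts and 155-fold at the main scaling, against a floor of 3 counts over the group. RP11-611O2.1 had 90 counts over the parental dBET6 libraries and 0 in DMSO, at least 40.2-fold with total counts and 62.6-fold at the main scaling, against the same floor. These 3 genes were read almost only in the dBET6 libraries, and JQ1 gave at most 7 summed counts for any of them in a group. The place of these genes in the list rests on the dBET6 libraries. This pattern is therefore part of how they were chosen and is given as a description only.

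AP000692.10, which starts 439 bases from MORC3, had 44.9 and 38.9 FPKM in resistant dBET6 libraries, 0.345 and 0.351 with JQ1, and 0.337 and 0.368 in DMSO. Parental values were 77.8 and 71.7 FPKM with dBET6, 1.22 and 1.06 with JQ1, and 0.892 and 0.742 in DMSO. With dBET6 its counts rose by 6.90 ± 0.18 in resistant and 6.55 ± 0.15 in parental cells (log2), while with JQ1 the changes of −0.01 ± 0.35 and 0.50 ± 0.23 did not pass the threshold. RP4-769N13.7, opposite GPRASP1, which encodes a receptor-sorting protein, had 20.6 and 20.0 FPKM in resistant dBET6 libraries against 0.433 and 0 with JQ1. Its summed counts were 81 with dBET6 and 2 with JQ1 in that line, 99.5 times as many at the main scaling (counting interval 26.7 to 836) and 54.0 times with total counts (14.5 to 453).

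RP11-196G18.3 rose with both compounds. It lies opposite FCGR1A, the gene of an immunoglobulin receptor, in a region with near-identical copies between which reads are divided, so its level is uncertain. It had 100 and 86.4 FPKM in resistant dBET6 libraries, 6.35 and 5.23 with JQ1, and 0.0196 and 0.0155 in DMSO. Parental libraries had 27.0 and 27.9 FPKM with dBET6, 4.99 and 6.73 with JQ1, and 0 and 0.0329 in DMSO. DMSO gave 0 to 4 counts a library, JQ1 611 to 750 and dBET6 1630 to 4300, and the 3 treatments did not overlap. RP11-149I9.2, opposite AATK, a kinase gene, had 119 and 88 counts in resistant dBET6 libraries, 10 and 10 with JQ1 and 0 and 3 in DMSO. With JQ1 the ratio of summed counts was 8.14 (counting interval 2.41 to 42.8) in resistant and 12.5 (3.08 to 110) in parental cells, and the call in resistant cells was lost without DMSO library 1 (log2 1.84, adjusted p = 0.0662).

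**Figure D4:**
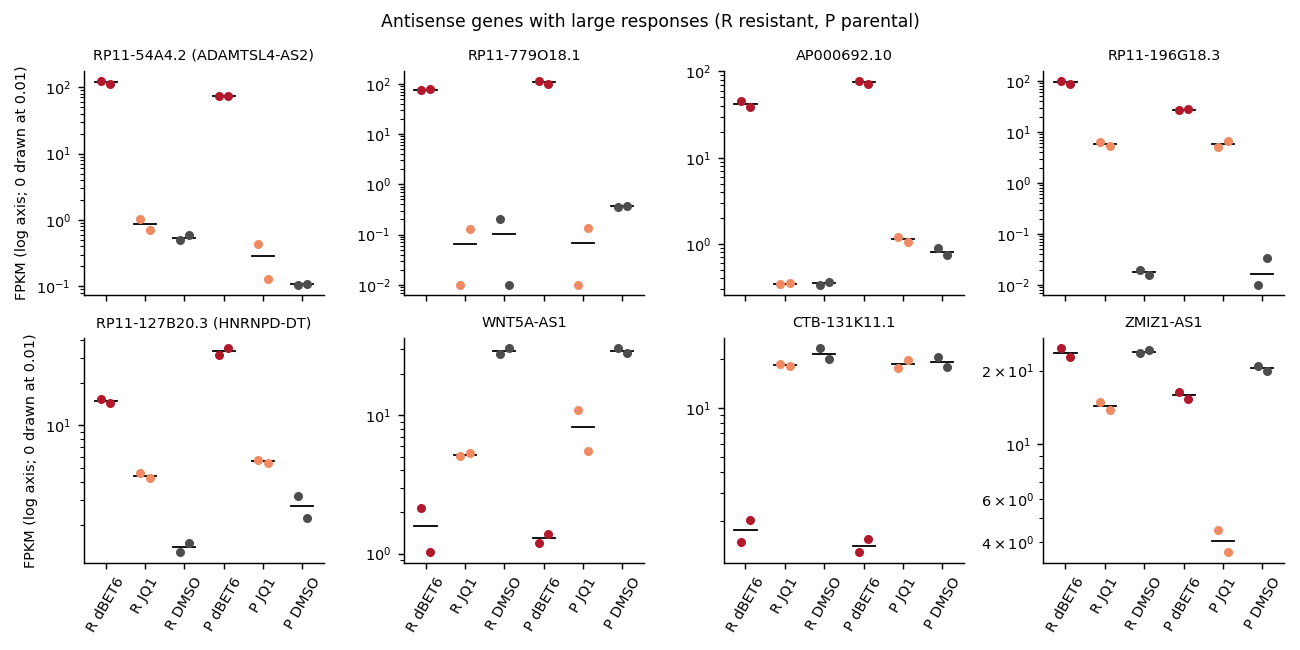
FPKM (log axis, 0 drawn at 0.01) of 8 antisense genes in each library, with the resistant groups left of the parental ones, points for libraries and lines for the mean of 2. RP11-54A4.2 reaches 111 to 125 FPKM with dBET6 in resistant cells against 0.493 and 0.589 in DMSO, and WNT5A-AS1 falls to 1.02 and 2.15 against 27.6 and 30.4.

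Among smaller rises with JQ1, CTD-2256P15.2 (MARCHF6-DT), which runs away from a ubiquitin ligase gene, had 9.80 and 9.37 FPKM in resistant JQ1 libraries against 2.43 and 2.22 in DMSO, and 8.73 and 7.98 against 1.76 and 1.72 in parental cells. Its counts rose by 2.31 ± 0.17 (log2) in parental cells. LRP4-AS1 had 2.76 and 2.83 FPKM in resistant JQ1 libraries against 0.706 and 0.754 in DMSO, a log2 change of 2.22 ± 0.23. With dBET6 LRP4-AS1 had 18.6 and 19.3 FPKM in the same line. RP11-309L24.2 (FLNC-AS1) crosses FLNC, the gene of the actin cross-linker filamin C, and had 31.5 and 25.6 FPKM in resistant dBET6 libraries, 1.75 and 3.89 with JQ1, and 0.490 and 0.166 in DMSO. Its counts rose by 6.43 ± 0.36 with dBET6 and 3.05 ± 0.46 with JQ1 in that line, and by 4.48 ± 0.28 and 2.37 ± 0.31 in parental cells. Its DMSO counts were 7 and 2 in resistant and 16 and 20 in parental libraries, so the sizes of these rises rest on few reads.

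WNT5A-AS1 fell with both compounds. Among the 187 its fitted change with dBET6 was the lowest in both lines. In GENCODE 29 it starts 57 bases from WNT5A, the gene of a Wnt ligand of the non-canonical pathway, and shares no exonic base with it. It had 2.15 and 1.02 FPKM in resistant dBET6 libraries, 5.09 and 5.29 with JQ1, and 27.6 and 30.4 in DMSO. In parental cells it had 1.20 and 1.39 FPKM with dBET6, 11.0 and 5.54 with JQ1, and 30.3 and 28.1 in DMSO. The groups did not overlap, in the order dBET6, JQ1 and DMSO. Its counts fell by 3.72 ± 0.31 with dBET6 and 2.21 ± 0.21 with JQ1 in resistant cells, and by 4.17 ± 0.30 and 1.79 ± 0.20 in parental cells (log2). WNT5A fell as well, to 9.91 and 10.7 FPKM with dBET6 and 10.6 and 10.7 with JQ1, against 50.8 and 50.6 in DMSO, in resistant cells.

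CTB-131K11.1 starts 87 bases from FBXL20, the gene of an F-box protein of ubiquitin ligases. It had 1.5 and 2.05 FPKM in resistant dBET6 libraries, 18.5 and 18 with JQ1, and 23.2 and 19.9 in DMSO. Its counts fell with dBET6 by 3.62 ± 0.21 in resistant and 3.72 ± 0.21 in parental cells (log2), and against JQ1 they fell by 3.41 ± 0.21 and 3.72 ± 0.21. With JQ1 against DMSO the changes of −0.20 ± 0.13 and 0.01 ± 0.13 did not pass. GS1-251I9.4 (OTUD6B-AS1), which starts 7 bases from OTUD6B, a deubiquitinase gene, had 1.52 and 0.945 FPKM in resistant dBET6 libraries, 7.21 and 6.18 with JQ1 and 11.7 and 11.6 in DMSO. LOXL1-AS1, against LOXL1, whose enzyme cross-links elastin, had 2.02 and 2.89 FPKM in resistant dBET6 libraries, 4.61 and 4.80 with JQ1, and 8.0 and 9.67 in DMSO. Both fell with each compound in each line, in LOXL1-AS1 by 2.30 ± 0.22 with dBET6 and 0.91 ± 0.16 with JQ1 in resistant cells (log2).

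With JQ1 the lower genes included ZMIZ1-AS1, AC005592.2 and RP11-395B7.4. ZMIZ1-AS1, which runs from near ZMIZ1, a transcriptional coactivator gene, had 14.9 and 13.8 FPKM in resistant JQ1 libraries against 23.5 and 24.3 in DMSO, and 4.47 and 3.63 against 21.0 and 20.0 in parental cells. AC005592.2 (SPRY4-AS1), beside SPRY4, an inhibitor of receptor tyrosine kinase signalling, had 7.49 and 6.66 FPKM in resistant JQ1 libraries against 18 and 17.2 in DMSO, and 2.89 and 5.03 against 13.7 and 16.7 in parental cells. RP11-395B7.4 (MUC12-AS1), against a mucin gene, had 3.28 and 2.33 FPKM in resistant JQ1 libraries against 11.2 and 14.3 in DMSO. Their log2 fold changes with JQ1 in resistant cells were −0.71 ± 0.10, −1.52 ± 0.22 and −2.05 ± 0.34.

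Several genes lay lower with dBET6 than with JQ1. The compounds were given at the same dose and for the same time. SNHG12 had 14.8 and 15.1 FPKM in resistant dBET6 libraries and 92.1 and 95.4 with JQ1, a log2 difference of −2.61 ± 0.11, with 28.7 and 29.9 in DMSO. MID1IP1-AS1, against a gene of lipid synthesis, had 10.1 and 14.3 FPKM with dBET6 and 49.5 and 61.6 with JQ1 in parental cells, a difference of −2.15 ± 0.22. RP11-418J17.1 (WARS2-AS1), against the mitochondrial tryptophanyl-tRNA synthetase gene, had 3.40 and 2.76 FPKM with dBET6 and 18.4 and 18.1 with JQ1 in parental cells, a difference of −2.33 ± 0.14. LINC00984, now the protein-coding gene INAFM2, had 5.49 and 4.73 FPKM with dBET6 and 23.8 and 23.5 with JQ1 in resistant cells, a difference of −2.09 ± 0.20. PSMD5-AS1, now the pseudogene CUTALP, starts 12 bases from a gene of a proteasome assembly chaperone. Its paired counts gave 0.379 of its FPKM, and it had 2.06 and 2.65 FPKM with dBET6 and 6.89 and 7.32 with JQ1 in parental cells. CTD-2231E14.8 had 0.219 and 2.99 FPKM with dBET6 and 8.48 and 8.24 with JQ1 in resistant cells. In all 6 genes the 2 compounds did not overlap.

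The sense gene could be named for 106 of the 200, for 42 by the deposited symbol and for 64 by the current one. The exons of 66 pairs overlapped, those of 40 did not, and 74 pairs started within 1000 bases of each other. Of these pairs, 105 had both genes tested. The antisense gene had the higher FPKM in 51 of 106 pairs with dBET6, 35 with JQ1 and 34 in DMSO in resistant cells, and in 48, 37 and 35 in parental cells. FPKM is per length, but whether the libraries kept strand is not stated. In the 66 pairs with overlapping exons the reads of the 2 genes therefore cannot be told apart. The antisense genes were chosen on a mean that includes the dBET6 libraries and the sense genes were not, so nothing is read from the larger number with dBET6.

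With dBET6 in resistant cells both genes were called in 73 pairs, 40 in the same and 33 in opposite directions (54.8% the same way). In parental cells there were 72, 41 the same way and 31 opposite (56.9%). In the opposite pairs the antisense gene was the higher one in 27 of 33 in resistant and 23 of 31 in parental cells, from which nothing is read, since the choice of genes favoured those high with dBET6. Among pairs without exon overlap 13 went the same and 14 opposite ways in resistant cells, and 16 and 13 in parental cells. With JQ1 24 pairs went the same and 13 opposite ways in resistant cells (64.9%), and 32 and 14 in parental cells (69.6%). Between the lines in DMSO 27 of 29 pairs went the same way (93.1%). Without exon overlap 10 pairs went the same and 7 opposite ways with JQ1 in resistant cells, and 13 and 8 in parental cells. Between the lines 8 of 8 such pairs went the same way. The share among other pairs of genes was not computed, so nothing is read from these shares. With mitochondrial scaling the dBET6 share in resistant cells was 84.4%, so how often the genes of a pair parted depended on the scaling.

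HNRNPD-DT (RP11-127B20.3) starts 101 bases from HNRNPD, whose protein binds AU-rich mRNAs, and overlaps 203 of its exonic bases. It had 15.4 and 14.4 FPKM in resistant dBET6 libraries, 4.58 and 4.26 with JQ1, and 1.27 and 1.49 in DMSO. HNRNPD had 27.7 and 40.8 FPKM with dBET6, 121 and 118 with JQ1, and 128 and 128 in DMSO in the same line. With dBET6 the antisense gene rose by 3.49 ± 0.24 while HNRNPD fell by 1.99 ± 0.10 in resistant cells, and in parental cells the log2 changes were 3.73 ± 0.20 and −1.85 ± 0.09. KMT2E-AS1, against the chromatin regulator gene KMT2E, had 48.6 and 40.3 FPKM in resistant dBET6 libraries against 4.61 and 7.66 in DMSO. KMT2E had 6.69 and 7.55 FPKM with dBET6 against 21.8 and 22.2 in DMSO. Their log2 changes were 3.94 ± 0.21 and −2.46 ± 0.11. The counts paired with KMT2E-AS1 accounted for 0.65 of its FPKM, on which its change was 2.88.

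KANSL1-AS1, against the gene of a scaffold of the NSL histone acetyltransferase complex, rose with dBET6 by 2.15 ± 0.17 in resistant cells (0.09 with mitochondrial scaling) while KANSL1 fell by 2.25 ± 0.11. CTD-2203K17.1 (TARS1-DT) shares no exonic base with TARS, the threonyl-tRNA synthetase gene, and starts 77 bases from it. It rose with dBET6 by 1.63 ± 0.25 in parental cells, while TARS fell by 1.91 ± 0.10, and with mitochondrial scaling CTD-2203K17.1 turned to −0.14. NUTM2A-AS1 went the other way in parental cells, falling by 1.49 ± 0.13 while NUTM2A rose by 1.87 ± 0.35. NUTM2A stayed low, at 0.541 and 0.606 FPKM with dBET6 against 0.101 and 0.218 in DMSO. RP11-22P6.3 (ATP2A1-AS1), against a calcium pump gene, had 140 and 149 counts with JQ1 against 273 and 327 in DMSO in parental cells, while ATP2A1 had 4.93 and 4.90 FPKM with JQ1 against 2.02 and 0.849 in DMSO. TRIM52-AS1 fell with JQ1 by 1.24 ± 0.17 in resistant cells while TRIM52, a ubiquitin ligase gene 73 bases away, rose by 0.91 ± 0.17.

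**Figure D5:**
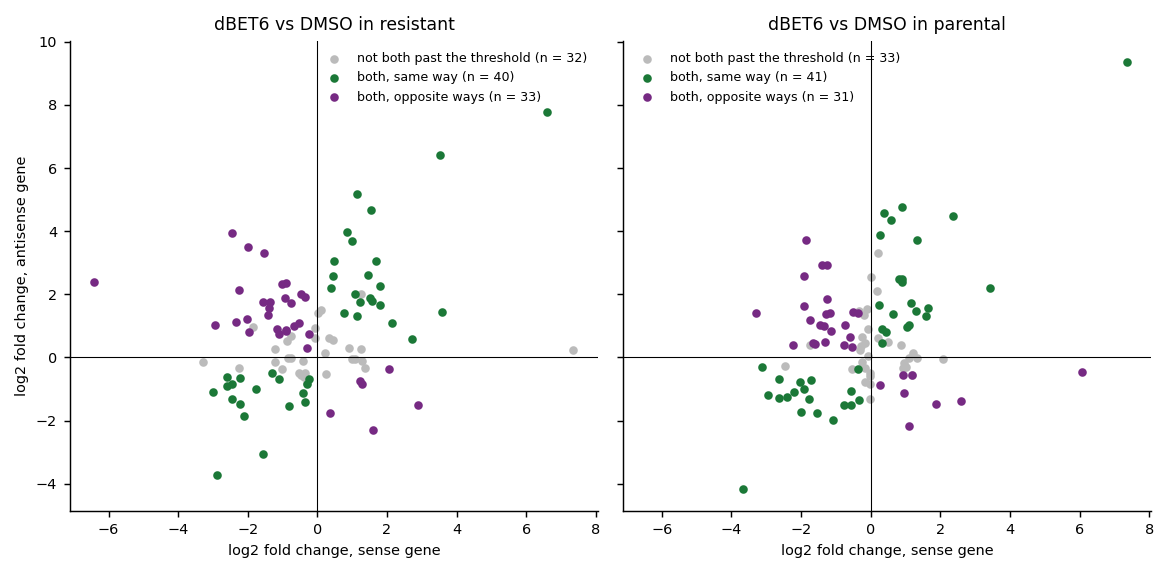
Log2 fold change with dBET6 of the antisense gene (vertical) against its sense gene (horizontal) for 105 pairs, in resistant (left) and parental (right) cells. Green pairs moved the same way with both genes called (40 and 41), purple pairs opposite ways (33 and 31), and most purple points lie at upper left, where the antisense gene was higher and the sense gene lower.

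Lists of antisense and host genes gave few members each. Of 28 snoRNA host genes listed, ZFAS1, SNHG7, SNHG12 and SNHG10 were among the 200. With JQ1 3 of the 4 were higher in resistant cells and none lower, and 2 were higher and 1 lower in parental cells. With dBET6 3 were higher and 1 lower in resistant cells, and 3 were higher and none lower in parental cells. The shares of all genes are those given above, and with 4 genes nothing is read from these counts. SNHG12 rose with JQ1 by 1.82 ± 0.10 in resistant and 0.94 ± 0.10 in parental cells. With dBET6 it fell by 0.78 ± 0.11 in resistant cells, and in parental cells the log2 change of −0.13 ± 0.10 did not pass. SNHG10, which starts 7 bases from GLRX5, a gene of iron-sulfur cluster assembly, had 27.8 and 21.4 FPKM in resistant dBET6 libraries, 6.68 and 9.38 with JQ1, and 8.72 and 7.52 in DMSO. Its counts rose with dBET6 by 1.79 ± 0.13 in resistant (−0.27 with mitochondrial scaling) and 2.03 ± 0.13 in parental cells (0.26). SNHG7 had 48.5 and 49.1 FPKM in resistant dBET6 libraries against 43.3 and 41.9 in DMSO, and its small log2 changes of 0.25 and 0.24 with dBET6 passed in the full fit, at adjusted p of 0.025 in each line, but turned to −0.82 and −0.40 with total counts. Leaving out any 1 of 10 libraries in resistant and 11 in parental cells ended that call, and over all 12 such fits the values ran from 0.18 to 0.25 and from 0.05 to 0.32.

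Of 22 listed antisense genes of the HOX clusters, whose transcription factors set position along the body axis, HOTAIRM1 and HOXD-AS2 were among the 200. HOXD-AS2 starts 56 bases from HOXD3 and had 27.8 and 29 FPKM in resistant dBET6 libraries, 2.26 and 2.58 with JQ1, and 10.2 and 10.0 in DMSO. In parental cells it had 20.6 and 23.8 FPKM with dBET6, 3.94 and 4.22 with JQ1 and 10.3 and 15.9 in DMSO. It fell with JQ1 by 2.02 ± 0.19 and 1.65 ± 0.17 in resistant and parental cells, and its log2 changes with dBET6 were 1.53 ± 0.16 and 0.81 ± 0.16, turning to −0.54 and −0.97 with mitochondrial scaling. HOTAIRM1, known from myeloid differentiation, had 17.3 and 16.2 FPKM with JQ1 against 32.6 and 31.0 in DMSO in resistant cells, and 11.6 and 11.5 against 22.6 and 25 in parental cells. With dBET6 it had 39.0 and 48.3 FPKM in resistant and 14.3 and 17.6 in parental cells. The log2 changes with dBET6 were 0.48 ± 0.13 and −0.49 ± 0.14. The first was lost without resistant dBET6 library 2 (0.29, adjusted p = 0.110) and turned to −0.60 with total counts and −1.59 with mitochondrial scaling, and the second was lost without parental dBET6 library 1 (−0.37, adjusted p = 0.050).

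Of 59 listed genes studied in cancer or stem cells 9 were among the 200. With dBET6 4 were higher and 4 lower in resistant cells and 2 and 4 in parental cells, and with JQ1 2 were higher and 4 lower in resistant cells and 2 and 3 in parental cells. Of all genes tested 35.7% were higher and 39.5% lower with dBET6 and 20.8% and 23.1% with JQ1 in resistant cells. In parental cells these shares were 37.0% and 39.3% with dBET6 and 22.8% and 26.1% with JQ1. With 9 genes nothing is read from the counts of this list. FGD5-AS1 fell with JQ1 by 0.71 ± 0.08 in resistant and 0.66 ± 0.09 in parental cells. It had 45.4 and 48.8 FPKM with dBET6, 32.3 and 32.8 with JQ1, and 57.2 and 52.1 in DMSO in resistant cells. TUG1, a widely expressed nuclear RNA, fell with dBET6 by 0.86 ± 0.10 in resistant cells, and its change of 0.04 ± 0.09 in parental cells did not pass. CD27-AS1 had a log2 change of 0.57 ± 0.11 with dBET6 in resistant cells, −0.50 with total counts and −1.5 with mitochondrial scaling. PCBP1-AS1 was the member of a further list of 29 genes. Its log2 change of 0.81 ± 0.16 with dBET6 in parental cells turned to −0.97 with mitochondrial scaling. RP11-463O9.5 (FOXC2-AS1) was the member among 58 listed antisense genes of transcription factor genes, and is described with the lines.

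Between the lines in DMSO 42 of the 187 genes (22.5%) were higher in resistant cells and 29 (15.5%) lower, where 17.4% and 21.2% of all genes tested were. Of the calls 59.2% were higher, 67.6% with total counts and 21.7% with mitochondrial scaling. Without resistant DMSO library 2 the shares were 13.9% and 9.63%. The share higher was 15.0% without parental DMSO library 1, parental DMSO library 2 or resistant DMSO library 1. ENSG00000264340, opposite CNDP1, the carnosinase gene, had 25.1 and 24.7 FPKM in resistant and 0.999 and 1.02 in parental DMSO libraries, a log2 difference of 4.49 ± 0.40. Its counts were 84 and 70 in resistant and 3 and 3 in parental DMSO libraries. CTD-2263F21.1, opposite EGFLAM, had 26.0 and 20.6 FPKM in resistant and 2.53 and 2.85 in parental cells, a difference of 2.99 ± 0.35. LENG8-AS1 had 6.62 and 8.13 FPKM in resistant and 2.74 and 3.33 in parental cells, a difference of 1.25 ± 0.23.

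RP11-463O9.5 (FOXC2-AS1), beside the forkhead factor gene FOXC2, had 12.5 and 10.7 FPKM in resistant and 4.86 and 3.47 in parental DMSO libraries. Its difference of 1.4 ± 0.40 was lost without parental DMSO library 2 (1.20, adjusted p = 0.0720) or resistant DMSO library 1 (1.29, adjusted p = 0.0537). Its log2 changes with dBET6 were 2.33 in resistant (0.26 with mitochondrial scaling) and 1.4 in parental cells (−0.34), and the second was lost without parental DMSO library 2 (1.15) or parental dBET6 library 2 (1.08). RP11-332H18.4 (TBX2-AS1) and TBX2, a T-box repressor gene, were both higher in resistant cells, at 35.8 and 36.5 against 11.6 and 16.4 FPKM for the antisense gene and 39.8 and 39.5 against 16.1 and 19 for TBX2. Their log2 differences were 1.23 ± 0.13 and 1.20 ± 0.10.

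RP11-669N7.2 (TMEM132D-AS1) was lower in resistant cells, at 0.655 and 0.892 FPKM against 11.3 and 9.66 in parental DMSO libraries, a difference of −4.13 ± 0.33. It stayed low with both compounds in resistant cells, at 1.90 and 2.61 FPKM with dBET6 and 1.04 and 0.626 with JQ1. RP11-309L24.2 (FLNC-AS1) and FLNC were both lower in resistant cells, by 2.09 ± 0.51 and 1.48 ± 0.09 (log2). RP11-309L24.2 had 7 and 2 counts in resistant and 16 and 20 in parental DMSO libraries, so its difference rests on few reads. AC108142.1 (TENM3-AS1) was lower in resistant cells by 1.18 ± 0.12 while TENM3, a teneurin gene of cell adhesion, was higher by 0.45 ± 0.11.

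The response to JQ1 differed between the lines in 9 genes, with a higher value in resistant cells in 6 (3.21%, where 3.62% of all genes were) and a lower one in 3 (1.60%, where 2.88% were). The response to dBET6 differed in 47, with a higher value in resistant cells in 30 (16%, where 13.7% of all genes were) and a lower one in 17 (9.09%, where 14.2% were). Of these calls 63.8% were higher, 19.3% with total counts and 24.0% with mitochondrial scaling. RP11-644F5.11 (CD63-AS1), against the tetraspanin gene CD63, differed most with dBET6. It had 20.9 and 20.5 FPKM with dBET6 against 2.52 and 2.53 in DMSO in resistant cells, and 1.85 and 3.24 against 3.12 and 3.18 in parental cells. DYNLL1-AS1 (NRAV), beside the dynein light chain gene DYNLL1, had 21.1 and 18 FPKM with dBET6 against 6.22 and 6.14 in DMSO in resistant cells, and 9.40 and 8.71 against 9.20 and 9.25 in parental cells. The differences of response were 3.34 ± 0.24 and 1.66 ± 0.16 (log2, adjusted p = 1.1e-10 and 2.0e-08).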

How the data were processed

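PolyA RNA of 12 U87 libraries was analysed. The authors deposited kallisto estimated counts and TPM per transcript, per the file headers, and a gene table labelled FPKM, per the file name. Kallisto, DESeq2 and hg19 are named in the submitters' processing notes, with no versions. The deposited FPKM equalled summed TPM times a factor per library for 180 of the 200 genes (within 0.8 to 1.25), so a level is relative to the rest of its library. Transcripts were paired to genes through GENCODE release 29, which covered 92.6% of transcripts and 95.0% to 96.3% of counts, and 13 of the 200 had no counts.

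The estimated counts of a gene’s transcripts were added up and rounded. edgeR 4.0.16 in R 4.3.3 (TMM scaling, filterByExpr, robust quasi-likelihood test) was fitted over all 12 libraries, with 6 residual degrees of freedom and Benjamini-Hochberg adjustment over 19093 genes. The common biological coefficient of variation was 7.88%. Log2 fold changes carry an approximate standard error (SE). It is the absolute log2 fold change divided by the square root of the test's F statistic. For genes of few counts it can be smaller than the counting error. Intervals on ratios of counts are exact, at 95%, and cover counting error only. The test was tried on simulated counts for JQ1 against DMSO in parental cells, with few changed genes, as many higher as lower. That simulation held no shift in composition like that of the dBET6 libraries, so it does not test the scaling. DESeq2 1.42.0, limma 3.58.1 on log2(FPKM + 0.1) and log2(FPKM + 1), other scalings, filters and choices of genes, a replicate block and leaving out each library were alternatives.

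The genes, lists and tests were chosen with earlier results of these data known. Genes named were the 12 of highest mean, up to 5 each way per comparison with the largest changes and no overlap of libraries, those at rank 200, up to 6 per list, and up to 4 pairs each way per comparison. Libraries of one number deviated from their group means with correlations of −0.058 to 0.061. No pairing by number was seen, but noise in genes of few counts can lower such correlations, so a pairing is not excluded. Not every gene picked by this rule is described in the text. Promoter sequences came from RefSeq (GRCh38.p14).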

Additional observations from a re-analysis of the deposited data

Results flagged for a closer look

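The response to a compound differed between the lines, by edgeR's test of the difference itself, in 17 genes of largest difference, which give the 18 values below. Each is the log2 response in resistant minus parental cells, followed by the response in each line.

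With JQ1 the difference was 1.62 for ZMIZ1-AS1 (−0.71 in resistant and −2.33 in parental cells), 0.89 for SNHG12 (1.82 and 0.94), 1.04 for TM4SF19-AS1 (0.36 and −0.68), 0.81 for RNASEH1-AS1 (−0.45 and −1.26) and 0.76 for VPS9D1-AS1 (0.18 and −0.58). It was −1.92 for ENSG00000264340 (1.18 and 3.10), −1.04 for RP11-848P1.4 (−0.01 and 1.03) and −0.78 for CTD-2336O2.1 (0.03 and 0.81). The first pair, ZMIZ1-AS1 and SNHG12, kept the call without any single library. Leaving out 1 library ended it for TM4SF19-AS1 in 7 cases (0.86 to 1.20 over all omissions), for ENSG00000264340 in 6 (−2.18 to −1.63), for RP11-848P1.4 in 6 (−1.37 to −0.75) and for VPS9D1-AS1 in 5 (0.58 to 0.99). RNASEH1-AS1 lost it without resistant JQ1 library 2 (0.63, adjusted p = 0.0963), and CTD-2336O2.1 without parental DMSO library 1 (−0.60, adjusted p = 0.0578).

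With dBET6 the difference was 3.34 for RP11-644F5.11 (3.05 in resistant and −0.29 in parental cells), 2.30 for CTD-2021J15.1 (2.73 and 0.43), 1.94 for RP11-309L24.2 (6.43 and 4.48), 1.66 for DYNLL1-AS1 (1.65 and −0.01) and 1.52 for ZDHHC12-DT (1.89 and 0.37). It was −2.60 for ENSG00000264340 (0.34 and 2.94), −1.47 for RP11-440L14.1 (1.08 and 2.56), −1.41 for RP13-143G15.4 (0.70 and 2.11), −1.38 for LINC00984 (−1.08 and 0.30) and −1.36 for CTD-2537I9.12 (−1.20 and 0.16). RP11-309L24.2 lost the call without parental DMSO library 2 (1.74, adjusted p = 0.0581) or resistant DMSO library 2 (1.45, adjusted p = 0.0924), and CTD-2537I9.12 in 4 of 12 omissions (−1.61 to −1.05). The parental DMSO counts of ENSG00000264340 were 3 and 3, so both of its differences rest on few reads. The resistant DMSO counts of RP11-309L24.2 were 7 and 2, so its difference does as well.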

How the results depend on the processing

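Directions rest on the scaling. Scaled to mitochondrial mRNAs, the shares higher and lower were 15.5% and 59.4% with dBET6 in resistant cells, 17.1% and 57.2% in parental cells, 9.63% and 32.6% with JQ1 in resistant cells, and 19.8% and 54.0% (resistant) and 18.7% and 57.8% (parental) for dBET6 against JQ1; the share higher was 22.5% with JQ1 in parental cells, 5.35% between lines, and 0.535% (JQ1) and 3.21% (dBET6) for differences of response, and 84.4% of dBET6 pairs in resistant cells went the same way. With total counts dBET6 gave 35.8% and 42.8% in resistant cells, dBET6 against JQ1 42.8% lower there, and the dBET6 difference 5.88% and 24.6%. For genes chosen in DMSO the shares higher and lower were 36.9% and 35.3% (dBET6, resistant), 35.8% and 39.0% (dBET6, parental), 21.9% and 25.1% (JQ1, resistant) and 24.6% and 30.5% (JQ1, parental). On log2(FPKM + 0.1) and log2(FPKM + 1) the shares higher were 22.5% and 23% (JQ1, resistant), 13.5% and 12% (lines), 1% and 1% (JQ1 difference, with 0.5% and 0.5% lower) and 9% and 10.5% (dBET6 difference). DESeq2 gave 16.6% lower for dBET6 against JQ1 in parental cells and 5.20% lower for the dBET6 difference. Genes without exon overlap gave 26.7% lower (JQ1, resistant) and 1.67% higher and 3.33% lower (JQ1 difference), and the 100 highest 3.19% lower (JQ1 difference). Leaving out 1 library gave 13.9% to 24.1% higher and 9.63% to 17.1% lower between lines, 1.60% to 3.74% and 0% to 2.67% for the JQ1 difference, and 10.2% to 16% and 5.88% to 10.2% for the dBET6 difference. Shares moved by over 1.5 times without resistant DMSO library 2 (lines, both ways, and dBET6 difference, lower), without resistant dBET6 library 2 (dBET6 difference, higher), and without parental DMSO library 1, parental JQ1 library 2, resistant DMSO library 1 or either resistant JQ1 library (JQ1 difference).

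Of 171 results on named genes, mitochondrial scaling turned 23. With dBET6 in resistant cells these were RP11-783K16.5 (−0.20), SNHG7 (−1.82), LIPE-AS1 (−0.30), RP11-1148L6.5 (−0.071), RP11-755F10.1 (−0.28), SNHG10 (−0.27), HOTAIRM1 (−1.59), HOXD-AS2 (−0.54) and CD27-AS1 (−1.50). With dBET6 in parental cells they were CTD-2203K17.1 (−0.14), MMP24-AS1 (−0.22), ZFAS1 (−0.13), RP11-783K16.5 (−0.30), SNHG7 (−1.54), LIPE-AS1 (−0.90), RP11-755F10.1 (−0.18), HOXD-AS2 (−0.97), PCBP1-AS1 (−0.97) and RP11-463O9.5 (−0.34). The others were MMP24-AS1 with JQ1 in resistant (−0.036) and parental cells (−0.024), SNHG7 with JQ1 in resistant cells (−0.052) and SNHG12 between lines (−0.0054). Total counts turned SNHG7 with dBET6 in resistant (−0.82) and parental cells (−0.40), HOTAIRM1 (−0.60) and CD27-AS1 (−0.50) with dBET6 in resistant cells. On FPKM LIPE-AS1 with JQ1 turned in resistant (−0.052 and −0.051) and parental cells (−0.020 and −0.018). The cause was not tested. Of the calls on the 171, log2(FPKM + 0.1) ended 22, log2(FPKM + 1) 21, mitochondrial scaling 21 beside the 23 that turned, total counts 9, DESeq2 9, no filter 5 and RLE size factors 2, and 31 were lost without at least 1 library.

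With the replicate number as a block, 55.1% were higher with dBET6 in resistant and 54.5% in parental cells; no share moved by over 1.5 times, and 2 named results lost the call (RP11-848P1.4, difference with JQ1, and SNHG12, lines). With 2 libraries a group and no stated separate cultures, precision is limited most for genes of few counts.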

Other observations

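Of the 200 genes, 13 had no counts and can be described on FPKM only, with limma on log2(FPKM + 0.1). RP11-467J12.4 was higher with dBET6, by 3.13 in resistant cells (adjusted p = 5.67e-06) and 2.60 in parental cells (adjusted p = 2.21e-05). RP11-312O7.2 was lower, by −0.93 and −1.04 (adjusted p = 1.18e-05 and 7.85e-06). RP11-640M9.1 had changes of 2.51 and 0.93, and AC009133.12 of −1.61 and −1.29. RN7SL1 had changes of 1.78 and 2.17 (adjusted p = 0.0357 and 0.0155), under the limit given with its FPKM above.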
